A study of Mus musculus with 18 samples.

Results

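The endothelial genes described here are Tek, Thbd and Cxcl12, whose levels were lower after paraquat, and 7 markers of endothelial cells, Pecam1, Kdr, Flt1, Cldn5, Cdh5, Vwf and Eng. All probe sets carrying 1 of these symbols in the platform annotation were taken. They are 15 probe sets for 10 genes, of 12393 genes represented on the array. Tek, Thbd and Cxcl12 were singled out with their paraquat response already known, so their values are given as a description and their calls are no independent support for a fall. The arrays asked how the mouse cerebellum responds to oxidative stress by paraquat, a herbicide that generates superoxide, and how the amount of apolipoprotein D (ApoD), a lipid-binding lipocalin, bears on that response.

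The 18 arrays covered 6 groups of 3. The mice were wild-type, ApoD knock-out, or carried a human ApoD transgene that is over-expressed in neurons. Each was injected intraperitoneally, either with paraquat (30 mg/kg, dissolved in 200 µl of saline) or with the vehicle. All were males of about 80 days, and the cerebellum was taken 6 h after the injection. Each array held RNA pooled from 3 mice, and errors therefore describe differences among pools. The promoter of the transgene and the genetic background of the lines are not given in the sources used here. Arrays whose titles do not name paraquat were taken as saline.

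Endothelial cells line the vessels of the brain and, joined by tight junctions, form the blood-brain barrier. Their resting state is held by the receptor tyrosine kinase encoded by Tek (Tie2), which binds the angiopoietins, and their surface is kept from clotting by thrombomodulin, the product of Thbd, which binds thrombin and directs it to activate protein C. Cxcl12 encodes a chemokine that acts through CXCR4. Endothelium is one of its sources, and in the developing cerebellum the meninges are another.

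Values are deposited log2 signals, 1 per probe set and array, and each gene stands for its probe set with the highest mean. Genes were tested where 3 or more arrays had a signal at or above that array's 40th percentile, as was so for 8320 genes. A call is an adjusted p under 0.05 from limma, a linear model across all genes with Benjamini-Hochberg adjustment, two-sided. Of the 10 genes, 8 were tested. Pecam1 and Cdh5, defining endothelial markers, lay at the 35.9th and 33.9th percentile of all probe sets and were below that limit, on all but 2 arrays for Pecam1 and on all arrays for Cdh5. The mouse Apod signal lay between 8.22 and 9.83 on the 6 knock-out arrays and between 12.13 and 12.76 on the other 12. Replicate 2 of knock-out paraquat stood apart, with a median of 6.98 against 7.10 to 7.15 on the other arrays and a mean correlation with them of 0.971 against 0.986 to 0.993. The paraquat changes of the 8 tested genes in knock-out are given with and without it.

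The stretch of 250 bases before the start site is printed for 3 genes, Tek, Cxcl12 and Cldn5, to show the sequence just upstream of transcription. These 3 were called lower under paraquat in wild-type and knock-out. RefSeq promoters (GRCm38.p6) were found for 6 of the 10 genes, those of Tek, Cxcl12, Kdr, Flt1, Cldn5 and Eng. The 3 printed lie on the plus strand. Capitals mark matches, on either strand, to CACCC, the box bound by KLF factors (GGGTG on the other strand), and to AGAACA, the half-site of the glucocorticoid response element. The Tek stretch lies at chr4:94739039-94739288, that of Cxcl12 at chr6:117168285-117168534 and that of Cldn5 at chr16:18776597-18776846.
Tek: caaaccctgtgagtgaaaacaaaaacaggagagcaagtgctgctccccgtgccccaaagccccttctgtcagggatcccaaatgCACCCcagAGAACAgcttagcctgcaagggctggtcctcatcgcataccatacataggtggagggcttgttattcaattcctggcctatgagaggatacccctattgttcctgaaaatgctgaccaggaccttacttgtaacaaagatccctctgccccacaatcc
Cxcl12: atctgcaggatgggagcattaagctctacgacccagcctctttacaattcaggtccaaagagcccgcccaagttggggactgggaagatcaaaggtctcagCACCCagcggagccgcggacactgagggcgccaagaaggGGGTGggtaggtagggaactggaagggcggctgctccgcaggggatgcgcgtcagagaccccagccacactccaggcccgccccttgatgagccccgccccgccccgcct
Cldn5: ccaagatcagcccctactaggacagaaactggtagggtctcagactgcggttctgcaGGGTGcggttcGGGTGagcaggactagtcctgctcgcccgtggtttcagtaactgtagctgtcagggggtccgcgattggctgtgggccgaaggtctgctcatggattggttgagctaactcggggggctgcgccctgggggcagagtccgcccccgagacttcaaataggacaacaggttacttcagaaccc
The Tek stretch held 1 CACCC and 1 AGAACA match, that of Cxcl12 2 CACCC matches and that of Cldn5 2. Among 32851 promoter stretches of the same length, CACCC was found in 52% and AGAACA in 16.1%. The ETS core, AGGAAG, was found in 29.5% of them and the AP-1 site, TGANTCA, in 6.75%. Neither of these was found in the 3 stretches printed. Of the stretches not printed, those of Flt1 and Eng each held 2 AGGAAG matches, and that of Kdr held 0. CACCC was found in all 6 stretches. These matches are letters in a window and show nothing about binding.

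Under paraquat, Cxcl12 on its brighter probe set was the lowest relative to saline among the endothelial genes. It stood at 46.4% of the saline level in wild-type and 39.3% in knock-out. Its second probe set, described below, changed less. In wild-type its saline arrays read 8.78, 8.87 and 8.92 and its paraquat arrays 7.68, 7.87 and 7.69 (log2 signal, replicates 1 to 3). The knock-out arrays read 9.03, 9.08 and 8.92 under saline and 7.82, 7.25 and 7.91 under paraquat. In both genotypes every paraquat array lay far below every saline array. The log2 fold change was -1.11 (SE 0.15, n = 3 pools against 3, limma adjusted p = 1.5e-04) in wild-type and -1.35 (SE 0.15, adjusted p = 3.1e-05) in knock-out. It was -1.14 in knock-out without replicate 2 of knock-out paraquat. On this probe set, only 2 of the 8320 genes had a more negative fold change in either genotype. In bulk tissue, fewer cells of a type and less RNA per cell cannot be told apart.

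Transgenic arrays read 8.88, 9.13 and 8.80 for Cxcl12 under saline and 8.45, 8.32 and 8.78 under paraquat. All 3 paraquat arrays lay below the saline arrays, the highest of them only just. The log2 fold change of -0.42 (SE 0.15, 95% interval -0.73 to -0.11) did not pass the test across all genes (limma adjusted p = 1.0).

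The second probe set of Cxcl12, 1448823_at, changed less than the first, 1417574_at. Its wild-type arrays read 7.95, 8.13 and 8.04 under saline and 7.99, 7.89 and 7.73 under paraquat, and the groups overlapped. Its log2 fold changes were -0.17 in wild-type, -0.40 in knock-out and -0.20 in transgenic, none of which passed the limma test over all probe sets (adjusted p of 1.0, 0.18 and 1.0). The log2 difference of the first minus the second probe set changed by -0.94 in wild-type, -0.95 in knock-out and -0.22 in transgenic under paraquat. These differences are a description with no test, since the gene was chosen for the fall of its brighter probe set. With the mean of both probe sets in place of the brighter one, the Cxcl12 fold change was -0.64 in wild-type (limma adjusted p = 0.0054) and -0.87 in knock-out (adjusted p = 2.7e-04). Both were less negative than those of Tek (-0.83 and -0.91) and Thbd (-0.79 and -1.02), so Cxcl12 no longer ranked lowest. What sets the probe sets apart was not tested.

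**Figure D1:**
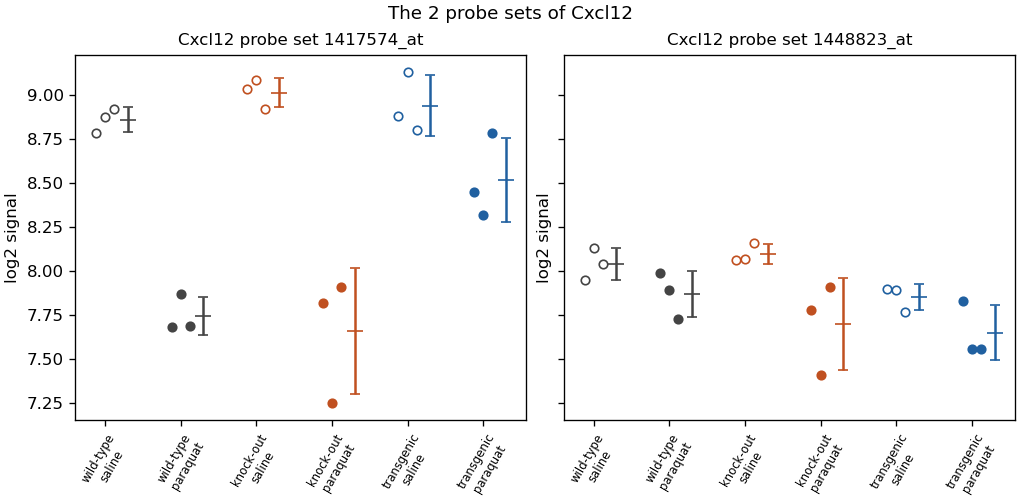
Log2 signal of both Cxcl12 probe sets on the 18 arrays, by genotype and treatment. Open points are saline arrays, filled points paraquat arrays, and bars the mean and SD of 3 pools. Probe set 1417574_at changed by -1.11 in wild-type and -1.35 in knock-out, while 1448823_at shows wild-type groups that overlap.

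Thbd read 7.49, 7.62 and 7.88 on wild-type saline arrays and 7.03, 6.66 and 6.93 on wild-type paraquat arrays. In knock-out it read 7.61, 7.67 and 7.69 under saline and 6.79, 6.03 and 7.07 under paraquat. The groups did not overlap in either genotype, and replicate 2 of knock-out paraquat was the lowest of all 18 arrays. The log2 fold change was -0.79 (SE 0.18, limma adjusted p = 0.023) in wild-type, or 57.8% of the saline level. It was -1.02 (SE 0.18, adjusted p = 0.0040) in knock-out, and -0.72 (adjusted p = 0.0050) without that replicate. Transgenic Thbd was already low under saline, at 7.19, 7.12 and 7.23, and read 6.99, 6.86 and 6.72 under paraquat, a change of -0.32 (SE 0.18, 95% interval -0.70 to 0.06).

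Tek read 6.95, 7.23 and 7.33 on wild-type saline arrays and 6.44, 6.24 and 6.35 on wild-type paraquat arrays. Knock-out arrays read 7.36, 7.23 and 7.28 under saline and 6.28, 6.08 and 6.78 under paraquat. Every paraquat array of both genotypes lay below every saline array. Its log2 fold change was -0.83 (SE 0.18, limma adjusted p = 0.015) in wild-type and -0.91 (SE 0.18, adjusted p = 0.0083) in knock-out, or 56.3% and 53.2% of the saline level. Without replicate 2 of knock-out paraquat the knock-out change was -0.76 (adjusted p = 0.044). In transgenic arrays Tek read 7.55, 6.97 and 6.97 under saline and 6.68, 6.58 and 7.13 under paraquat, where the groups overlapped, a change of -0.37 (SE 0.18, 95% interval -0.74 to 0.01).

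**Figure D2:**
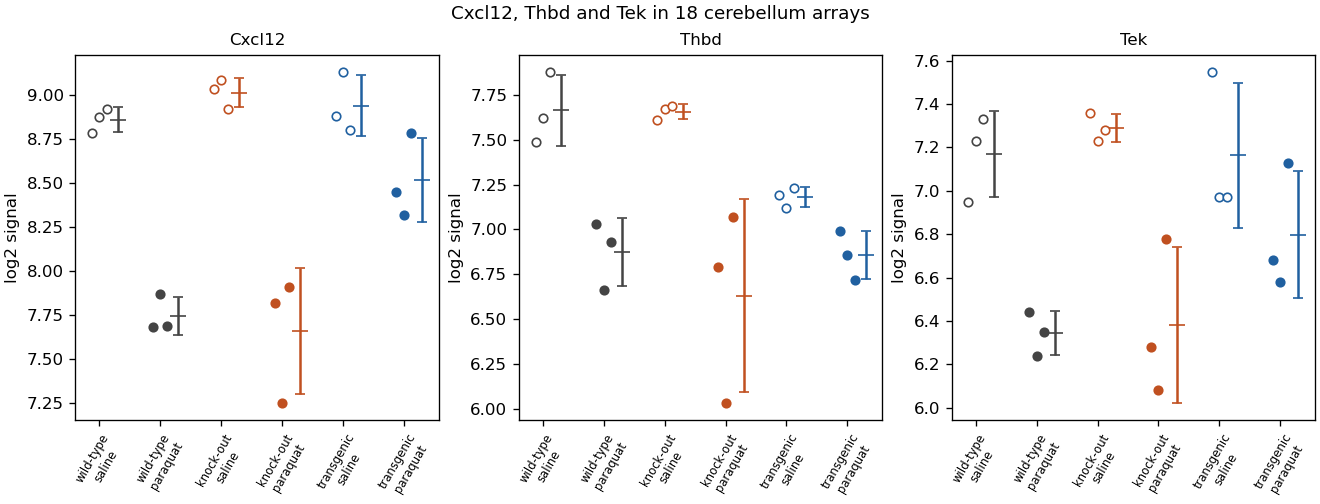
Log2 signal of Cxcl12, Thbd and Tek on the 18 arrays, by genotype and treatment. Open points are saline arrays, filled points paraquat arrays, and bars the mean and SD of 3 pools. Wild-type and knock-out paraquat arrays lie below all saline arrays of their genotype for each gene. Transgenic paraquat arrays do so for Cxcl12 and Thbd but not for Tek, with smaller mean changes for each gene.

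The wild-type calls of Tek and Thbd depended on single arrays. Tek lost its call without replicate 2 or 3 of wild-type saline or of wild-type paraquat (adjusted p of 0.063 to 0.096), and Thbd without the same arrays (0.070 to 0.16). In knock-out, Tek lost its call without replicate 1 of saline (adjusted p = 0.052). Cxcl12 kept its call in both genotypes when any 1 array was left out.

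Among the structural and receptor markers, Cldn5, the main claudin of the blood-brain barrier's tight junctions, was lower as well. It read 9.39, 9.51 and 9.69 on wild-type saline arrays and 8.94, 8.81 and 8.85 on paraquat arrays. Knock-out arrays read 9.54, 9.68 and 9.34 under saline and 8.94, 8.62 and 9.14 under paraquat. The paraquat arrays lay below the saline arrays in both genotypes, with log2 fold changes of -0.67 (SE 0.16, limma adjusted p = 0.029) and -0.62 (SE 0.16, adjusted p = 0.042). Both calls were close to the limit. The wild-type call was lost when any 1 wild-type array was left out (adjusted p of 0.058 to 0.18), and the knock-out call under 15 of 28 alternatives, among them leaving out replicate 2 of knock-out paraquat (-0.49, adjusted p = 0.18). Transgenic Cldn5 read 9.41, 9.26 and 9.78 under saline and 9.59, 9.21 and 9.77 under paraquat, a change of 0.04 (95% interval -0.29 to 0.37).

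Of the VEGF receptor genes, Flt1 was called in knock-out and Kdr in neither genotype. Flt1, whose product also binds VEGF as a decoy, read 8.30, 8.09 and 8.06 on knock-out saline arrays and 7.57, 7.25 and 7.65 on knock-out paraquat arrays, without overlap. Its log2 fold change was -0.66 (SE 0.13, limma adjusted p = 0.011), and -0.54 (adjusted p = 0.042) without replicate 2 of knock-out paraquat. Its call was lost without replicate 1 of knock-out saline (adjusted p = 0.087). A second Flt1 probe set, 1419300_at, gave -0.65, and a dimmer one, 1454037_a_at, gave -0.18. In wild-type, Flt1 changed by -0.30 (SE 0.13, adjusted p = 0.44). Kdr, the principal signalling receptor of VEGF, changed by -0.33 (SE 0.16, adjusted p = 0.49) in wild-type and by -0.36 (adjusted p = 0.24) in knock-out, or -0.45 (adjusted p = 0.26) without replicate 2 of knock-out paraquat.

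Eng encodes endoglin, a co-receptor for TGF beta ligands. It read 8.46, 8.34 and 8.30 on wild-type saline arrays and 8.09, 7.84 and 8.06 on paraquat arrays. The arrays did not overlap, and the change of -0.37 (SE 0.11, limma adjusted p = 0.12) missed the limit. It was called without replicate 2 of knock-out paraquat, an array of another genotype that enters the common estimate of spread (adjusted p = 0.049). In knock-out Eng changed by -0.26 (adjusted p = 0.24), or -0.25 without that array. Vwf, which encodes the clotting glycoprotein stored in endothelial granules, differed from the rest, with 0.24 (SE 0.18, adjusted p = 0.85) in wild-type and -0.10 (SE 0.18, adjusted p = 0.81) in knock-out. Without replicate 2 of knock-out paraquat, the latter was 0.10.

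The dim markers were read from the fit over all probe sets. Cdh5, the cadherin of endothelial junctions, changed by -0.26 (SE 0.12) in wild-type and -0.42 (SE 0.12) in knock-out on its brighter probe set, with adjusted p of 0.67 and 0.14 from limma. Its other probe set gave -0.18 and 0.26. Pecam1, an adhesion molecule of endothelial contacts, changed by 0.08 (SE 0.17) and 0.14 (SE 0.17). Near background, a real change can be compressed, so these values bound little.

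**Figure D3:**
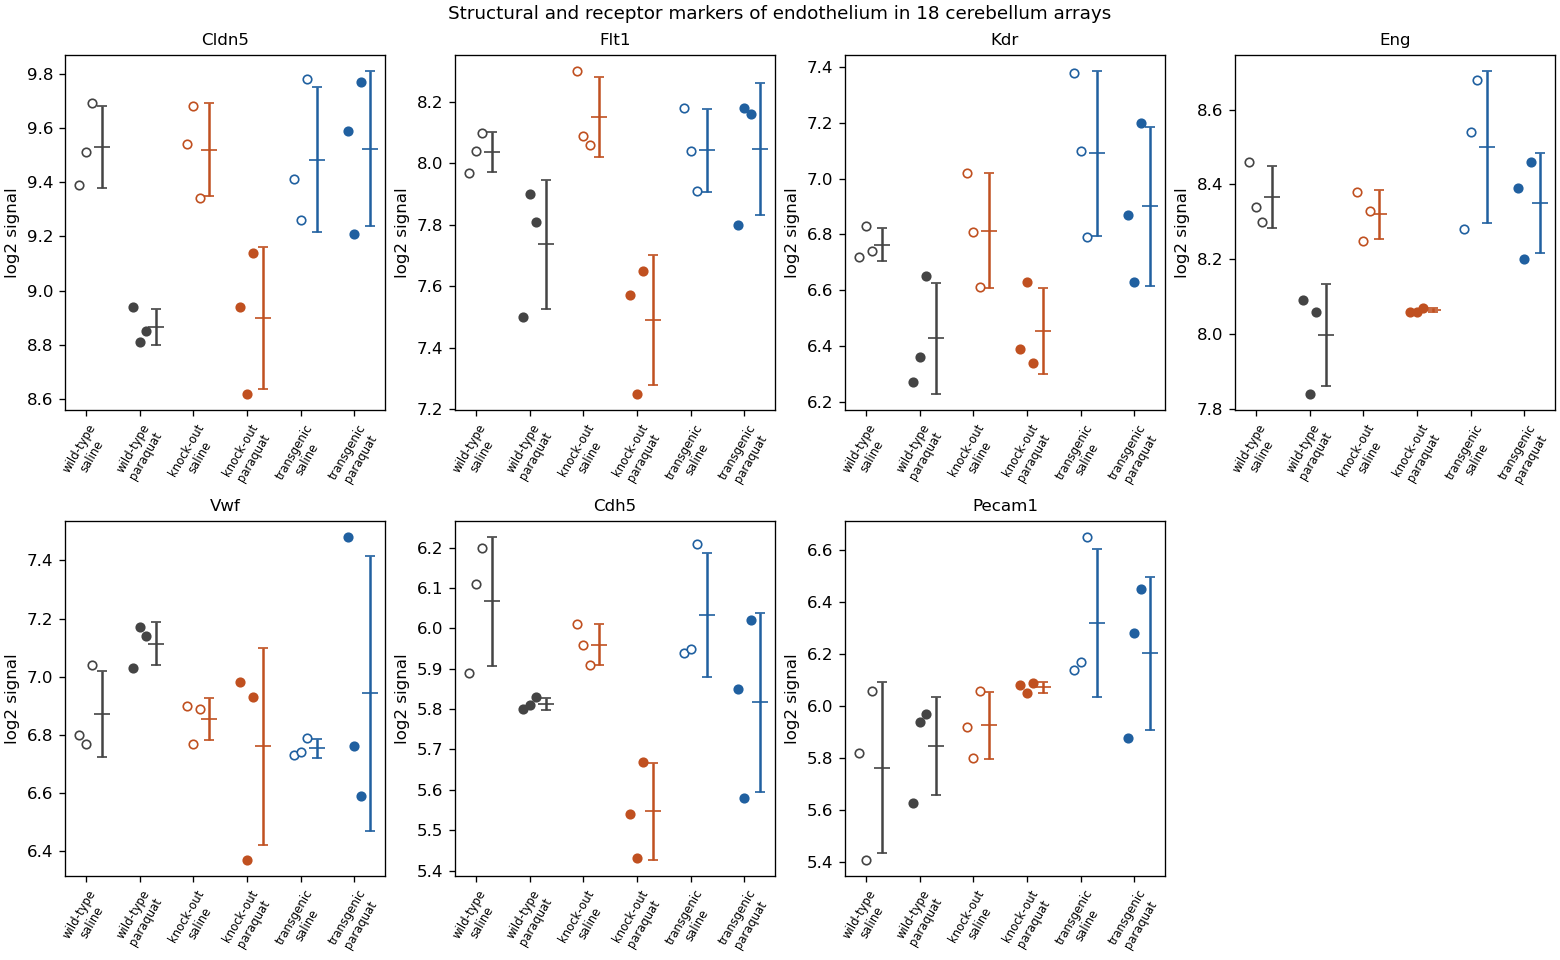
Log2 signal of 7 structural and receptor markers of endothelium on the 18 arrays, by genotype and treatment. Open points are saline arrays, filled points paraquat arrays, and bars the mean and SD of 3 pools. Cldn5, Flt1, Eng and Cdh5 are lower under paraquat in wild-type and knock-out without overlap, and Kdr is in wild-type only. Vwf and Pecam1 are not in either genotype.

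Counted together, 4 of the 8 tested genes were lower in wild-type (Cxcl12, Tek, Thbd and Cldn5), beside 0.469% of all genes tested. In knock-out 5 of 8 were lower (the same 4 and Flt1), beside 1.47%. In the average over genotypes, 6 of 8 were lower (Flt1 with -0.32 and Eng with -0.26 added), beside 2.88%. None was higher in these comparisons. Cxcl12, Tek and Thbd were chosen for their fall, so these counts, and those of arrays without overlap below, partly follow from that choice. Among the 5 tested structural markers, only Cldn5 was called in wild-type, and only Cldn5 and Flt1 in knock-out. In the average, Cldn5, Flt1 and Eng were called. In transgenic arrays 0 of 8 were called, beside 0% of all genes, where 118 genes had an unadjusted p under 0.05. Down-weighting arrays by their noise called 2 there, Cxcl12 and Eng, beside 409 genes in all (4.92%). Paraquat arrays lay below all saline arrays for 7 of 8 genes in wild-type, beside 11.8% of all genes. They did for 6 of 8 in knock-out, beside 17.7%, and for 2 of 8 in transgenic, beside 2.51%.

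The median log2 fold change of the 8 genes was -0.52 in wild-type, -0.64 in knock-out and -0.17 in transgenic. For the 5 tested structural markers (Kdr, Flt1, Cldn5, Vwf and Eng) it was -0.33, -0.36 and 0.00, and for all genes 0.02, -0.09 and -0.03. To set the first 3 genes against those markers, each paraquat array was compared with its genotype's saline mean. In wild-type the mean change of the 5 markers was -0.35, -0.30 and -0.21 on replicates 1 to 3. The change of Cxcl12 less that mean was -0.82, -0.69 and -0.95, that of Tek -0.38, -0.64 and -0.61, and that of Thbd -0.28, -0.71 and -0.52. On the knock-out arrays the differences were -0.84, -1.21 and -0.80 for Cxcl12, -0.67, -0.67 and -0.20 for Tek, and -0.52, -1.08 and -0.27 for Thbd. All 18 of these differences and the 9 of the transgenic arrays were negative, the latter from -0.10 for Tek to -0.54 for Cxcl12. The choice of these 3 genes by their response fixes that direction, and no test is given. Cxcl12 was read here from its brighter probe set. Its second probe set changed by -0.04, -0.14 and -0.31 in wild-type, less than the marker mean on replicates 1 and 2. In knock-out it changed by -0.31, -0.69 and -0.19, beside marker means of -0.34, -0.54 and -0.31. In transgenic it changed by -0.02, -0.30 and -0.29, beside marker means of 0.05, -0.18 and 0.06.

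**Figure D4:**
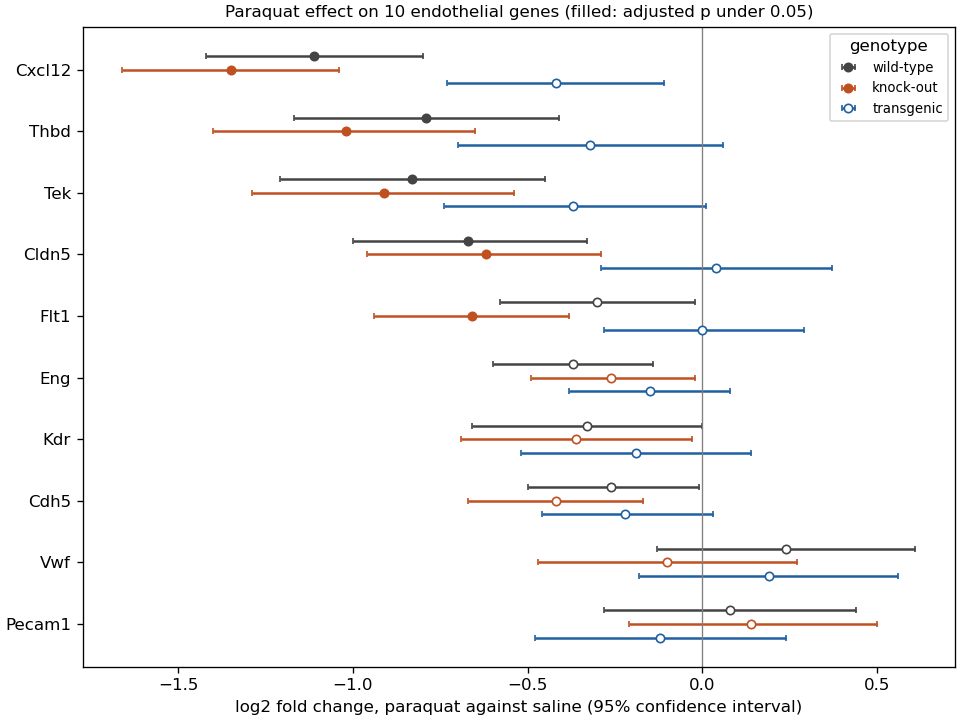
Log2 fold change of paraquat against saline for the 10 genes in 3 genotypes, with 95% confidence intervals from limma. Filled points passed an adjusted p under 0.05. Cxcl12, read from its brighter probe set, has the most negative point in wild-type (-1.11) and knock-out (-1.35), and no transgenic point is filled.

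The genotypes were compared under each treatment. Between knock-out and wild-type 0 of 8 genes were called under saline and 0 of 8 under paraquat, beside 0.0240% and 0.0120% of all genes in either direction, and limma gave unadjusted p of 0.063 or more for each. The largest difference was -0.35 for Vwf under paraquat (95% interval -0.72 to 0.02). Between transgenic and wild-type under saline 0 of 8 were called, beside 6.36%; the unadjusted p was under 0.05 for Thbd, at -0.48 (SE 0.18, limma adjusted p = 0.11). The transgenic saline arrays of Thbd lay below all saline arrays of both other genotypes. Between transgenic and knock-out under saline 0 of 8 were called, beside 9.33%, again with Thbd at -0.47 (adjusted p = 0.10). Without replicate 2 of knock-out paraquat, which enters the common estimate of spread, Thbd was called in both (adjusted p of 0.0086 and 0.0078), beside 18.8% and 22.8% of all genes.

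Under paraquat, 4 of 8 genes were higher in transgenic than in wild-type, beside 4.64% of all genes higher. The low paraquat values for which Cxcl12, Tek and Thbd were chosen enter this comparison and the one with knock-out. The differences of these genes, and their part in the counts, are therefore a description and no independent support. Cxcl12 was 0.77 higher (SE 0.15, limma adjusted p = 0.0019), Cldn5 0.66 (SE 0.16, 0.0076), Kdr 0.47 (SE 0.16, 0.042) and Eng 0.35 (SE 0.11, 0.032). The arrays did not overlap for Cxcl12, Cldn5, Eng and Tek, beside 14.4% of all genes, and overlapped for Kdr; Tek itself was not called (0.46, SE 0.18, adjusted p = 0.081). The Cxcl12 difference was 0.27 with the mean of its probe sets, where its call was lost (adjusted p = 0.12), and its second probe set gave -0.22 (SE 0.12), the opposite direction. Calls of Kdr were lost under 14 of 26 alternatives, and that of Eng without replicate 2 or 3 of wild-type paraquat or replicate 1 or 3 of transgenic paraquat (adjusted p of 0.051 to 0.16) and with the mean of its probe sets (0.23, adjusted p = 0.10). Against knock-out, 3 of 8 were higher in transgenic under paraquat, beside 9.60%. They were Cxcl12 at 0.86 (SE 0.15, adjusted p = 0.0015), Cldn5 at 0.62 (SE 0.16, 0.014) and Flt1 at 0.55 (SE 0.13, 0.011). Arrays did not overlap for these 3 and for Kdr and Eng, which were not called, beside 15.1% of all genes. Without replicate 2 of knock-out paraquat the 3 called differences were 0.65, 0.49 and 0.44, and remained called. With the mean of its probe sets, Cxcl12 differed by 0.40 from knock-out (adjusted p = 0.030), and its second probe set gave -0.05 (SE 0.12). The call of Cldn5 was lost without replicate 1 or 3 of transgenic paraquat (adjusted p of 0.055 and 0.052) and with those genotypes fitted alone (0.054), and that of Flt1 without replicate 2 (0.051).

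Other vascular genes differed in both directions. Under paraquat, 14.3% of all genes were lower in transgenic than in wild-type, and genes are named here after their values were seen. Of 13 blood-brain barrier transporters, 5 were lower and 1 was higher, with a median of -0.28. The lower ones were Slc2a1, Tfrc, Abcb1a, Abcg2 and Slco1a4, from -0.43 to -0.84, and the higher one was Slco1c1 at 0.47 (SE 0.13, limma adjusted p = 0.015). Of 15 other brain endothelial markers, 3 were lower and 0 were higher, with a median of -0.18, namely Ctla2a, Adgrl4 and Itm2a, from -0.50 to -0.88. Of 5 coagulation genes besides Thbd and Vwf, F3, F2r and Plat were lower, from -0.49 to -0.97. Both genes tested besides Cxcl12 among its receptors and regulators were lower, Ackr3 by a difference of -0.54 and Cd164 by one of -0.60. Foxo1 at -1.02 and Angptl4 at -1.43 were lower among 5 genes of the angiopoietin and Tie pathway list, which holds Angptl4 for its name's family. Sox18 at 0.82, Smad5 at 0.96 and Mcam at 0.80 were higher, each the only gene called in its list (endothelial transcription factors, endoglin and TGF beta receptors, adhesion molecules) besides Eng. Some of these differences were already called, in the same direction, between transgenic and wild-type under saline. They were Mcam (0.84), Smad5 (0.60), Abcb1a (-0.71), Slco1a4 (-0.45), Itm2a (-0.58) and Cd164 (-0.41). The other genes named in this paragraph were not called under saline.

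A higher level under paraquat is not a test of a smaller response. The difference of the paraquat effect between genotypes was called for 0 of 8 genes in each of the 3 pairs, beside 0%, 0.180% and 0.0481% of all genes for knock-out against wild-type, transgenic against wild-type and transgenic against knock-out. Between knock-out and wild-type, none of these 8 genes had an unadjusted p under 0.05, and Cxcl12 differed by -0.24 (95% interval -0.68 to 0.20). The paraquat effect on Cxcl12 was 0.93 less negative in transgenic than in knock-out (SE 0.21, limma adjusted p = 0.15, unadjusted p = 2.8e-04) and 0.69 less negative than in wild-type (SE 0.21, adjusted p = 0.44). With the mean of its probe sets the differences were 0.56 and 0.32, and on the second probe set alone 0.19 (SE 0.17) and -0.04 (SE 0.17). Without replicate 2 of knock-out paraquat, the difference from knock-out was 0.72 for Cxcl12 and 0.53 for Cldn5, and that of Cxcl12 between knock-out and wild-type was -0.04. With all arrays the corresponding differences for Cldn5 were 0.66 (adjusted p = 0.83) and 0.71 (adjusted p = 0.46). With arrays weighted by their noise, 3 such differences were called, all between transgenic and knock-out, for Thbd (0.55), Cxcl12 (0.45) and Flt1 (0.66), beside 10.1% of all genes.

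Ordered by group mean on its brighter probe set, Cxcl12 was highest in knock-out saline (9.01 ± 0.08, SD, n = 3), then transgenic saline (8.94 ± 0.17) and wild-type saline (8.86 ± 0.07), whose ranges overlapped. Transgenic paraquat (8.52 ± 0.23) stood between these and wild-type paraquat (7.75 ± 0.11), apart from both, and knock-out paraquat (7.66 ± 0.36) overlapped the latter. On its second probe set the order differed, with transgenic paraquat lowest (7.65 ± 0.16), below knock-out paraquat (7.70 ± 0.26) and wild-type paraquat (7.87 ± 0.13), all of which overlapped. For Tek all neighbours in the order overlapped, from knock-out saline (7.29 ± 0.06) to wild-type paraquat (6.34 ± 0.10). For Thbd, wild-type saline (7.66 ± 0.20) and knock-out saline (7.65 ± 0.04) overlapped, and transgenic saline (7.18 ± 0.06) lay apart from them and from wild-type paraquat (6.87 ± 0.19).

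No other tested gene of the angiopoietin and Tie pathway list was called lower with Tek. The list held 8 symbols, of which 6 were tested. Of 5 tested besides Tek, 0 were lower and 2 were higher in both wild-type and knock-out, beside 1.53% and 0.793% of all genes higher. Foxo1, a transcription factor that Tie2 signalling restrains, rose by 1.23 (SE 0.14, limma adjusted p = 1.9e-05) in wild-type and by 0.93 (SE 0.14, 6.6e-04) in knock-out. Its wild-type arrays lay between 7.97 and 8.12 under saline and between 9.03 and 9.43 under paraquat. Angptl4, a lipoprotein lipase inhibitor placed in this list for its name's family, rose by 1.78 (SE 0.20, 1.9e-05) and 1.62 (SE 0.20, 8.3e-05). The median over the 5 was -0.03 in wild-type. Ptprb had -0.45 (SE 0.15, limma adjusted p = 0.13) in knock-out.

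Of the genes around thrombomodulin, F3, which encodes tissue factor, the starter of clotting, rose by 0.66 (SE 0.14, limma adjusted p = 0.013) in wild-type and 0.61 (SE 0.14, 0.022) in knock-out. It was the only 1 of 5 tested besides Thbd and Vwf that was called, beside 1.53% and 0.793% of all genes higher. Each call was lost without some single arrays (adjusted p up to 0.086 and 0.16). Of the CXCL12 receptors and regulators, 2 were tested besides Cxcl12 and neither was called in wild-type, knock-out or transgenic; the scavenging receptor gene Ackr3 had 0.36 (SE 0.18, adjusted p = 0.52) in wild-type. Of the VEGF ligands and receptors, 0 of 6 tested besides Kdr and Flt1 were called in either genotype, with Vegfa at -0.21 (SE 0.12, adjusted p = 0.61) in wild-type. Of the endoglin and TGF beta receptor genes, 0 of 8 besides Eng were called, and of the junction genes 0 of 8 besides Cldn5.

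Genes of other endothelial functions went both ways. Among 13 blood-brain barrier transporters, 2 were lower and 1 was higher in wild-type, beside 0.469% of all genes lower and 1.53% higher. Slco1c1, a thyroid hormone transporter, fell by 0.64 (SE 0.13, limma adjusted p = 0.0073), from a range of 9.38 to 9.42 to one of 8.73 to 8.81. Slc38a5, a glutamine transporter, fell by 0.65 (SE 0.15, adjusted p = 0.023). Slc2a1, the glucose transporter of the barrier, rose by 0.81 (SE 0.18, adjusted p = 0.019), from 10.48 to 10.55 under saline to 11.30 to 11.35 under paraquat. In knock-out Slco1c1 fell by 0.57 (adjusted p = 0.018) and Slc2a1 rose by 0.75 (adjusted p = 0.032; 0.051 without replicate 2 of knock-out paraquat).

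Among 15 other brain endothelial markers, 0 were lower and 3 were higher in both genotypes. Of all genes, 1.53% were higher in wild-type and 0.793% in knock-out. Ramp2, a partner of the adrenomedullin receptor, rose by 0.83 (SE 0.19, limma adjusted p = 0.026) in wild-type and 0.98 (SE 0.19, 0.0081) in knock-out. Notch4, the Notch receptor of endothelium, rose by 0.78 (SE 0.16, 0.011) and 0.83 (SE 0.16, 0.0079), and Ctla2a rose by 0.62 (SE 0.14, 0.017) and 0.52 (SE 0.14, 0.048). Ctla2a lost its knock-out call under 18 of 27 alternatives. Of 8 endothelial transcription factors, 1 was lower in wild-type, Sox18 with -0.63 (SE 0.15, 0.025), beside 0.469% of all genes. In knock-out 0 were called. Klf2, a flow-induced factor known to drive Thbd, had -0.04 (SE 0.16) in wild-type. Of 4 adhesion genes, Cd44 fell in knock-out, by 1.24 (SE 0.17, 1.3e-04), beside 1.47% of all genes lower. In wild-type Cd44 changed by -0.57 (SE 0.17, limma adjusted p = 0.093) and was not called. The wild-type calls of Slc38a5, Slc2a1, Sox18, Ramp2, Notch4 and Ctla2a were each lost when certain single arrays were left out, with adjusted p up to 0.17. So were the knock-out calls of Ramp2 (up to 0.057), Notch4 (0.068), Slco1c1 (0.12) and Slc2a1 (0.15). Without replicate 2 of knock-out paraquat, the knock-out changes were -0.40 for Slco1c1, 1.16 for Ramp2, 0.77 for Notch4 and -1.07 for Cd44, all called.

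**Figure D5:**
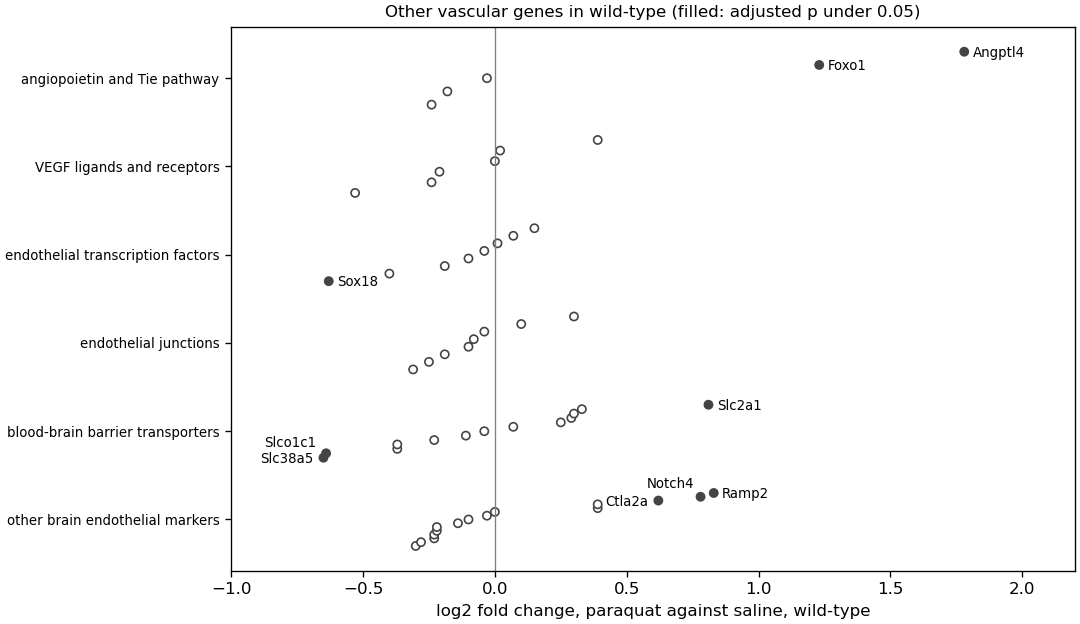
Log2 fold change of paraquat against saline in wild-type for the tested genes of 6 vascular lists, without the 10 genes described above. Each point is a gene, ordered by value within its list, and filled and named points passed an adjusted p under 0.05. Slco1c1, Slc38a5 and Sox18 lie to the left and Slc2a1, Ramp2, Notch4, Ctla2a, Foxo1 and Angptl4 to the right.

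Markers of other cells were read beside these results. In wild-type and knock-out, paraquat called 0 of 10 pericyte and smooth muscle markers, 0 of 11 meningeal and perivascular fibroblast markers, 0 of 9 astrocyte end-foot markers, 0 of 4 leukocyte and platelet markers and 0 of 1 erythrocyte marker. The mean level of the pericyte list ranged from 7.80 to 7.89 under saline and from 7.79 to 7.88 under paraquat in wild-type. That of the meningeal list ranged from 8.35 to 8.51 and from 8.38 to 8.52. Of 5 microglia and macrophage markers tested, 1 was lower in both genotypes, beside 0.469% and 1.47% of all genes. It was Cx3cr1, the fractalkine receptor gene, with -0.75 (SE 0.16, limma adjusted p = 0.015) and -0.91 (SE 0.16, 0.0041). Its knock-out change was -0.81 without replicate 2 of knock-out paraquat, and its wild-type call was lost without each of 4 single arrays (adjusted p up to 0.13). The mean level of that list ranged from 7.55 to 7.69 under saline and from 7.28 to 7.31 under paraquat in wild-type, and from 7.59 to 7.75 and from 7.11 to 7.35 in knock-out. Its defining marker Aif1, at 5.04, was not tested, nor were Mrc1, Cd163 and Lyve1. The part of these cells in the endothelial results was not tested. The mean level of the meningeal list was 8.11 (SD 0.10) on transgenic saline arrays against 8.42 (SD 0.08) in wild-type, with 3 of its 11 genes called lower (Dcn, Lum and Igf2), beside 4.38% of all genes. Under paraquat it was 8.05 (SD 0.15) against 8.46 (SD 0.07), with 5 of 11 lower (the same 3, Pdgfra and Fmod), beside 14.3%. Other cell lists also differed between transgenic and wild-type. Of 9 astrocyte end-foot markers, 2 were higher under saline (Gfap and Slc1a2), beside 6.36% of all genes in either direction. Under paraquat 3 were higher (Slc1a3 added), beside 4.64%. Of 10 pericyte and smooth muscle markers, Rgs5 and Higd1b were lower and Cspg4 was higher under paraquat. Whether any of these differences bears on Cxcl12 was not tested.

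The tested genes most like Cxcl12 over the 18 arrays, by Pearson correlation, were Slco1c1 (0.96), Msl1 (0.94), Phldb1 (0.94), Tnfrsf19 (0.93) and Trib2 (0.93). Those most like Tek were Slco1c1 (0.92), Tnfrsf19 (0.92), Fos (0.90), Msl1 (0.89) and Cx3cr1 (0.89). Fos, an immediate early transcription factor, changed by -1.89 in wild-type (limma adjusted p = 1.6e-04) and -2.21 in knock-out (3.2e-05). Thbd was most like Crhr1 (0.94), Fam117a (0.91), Adcy8 (0.89), Nup50 (0.89) and Spred2 (0.89), none of them in the other lists of 5. Among the endothelial genes, Cxcl12 correlated with Tek at 0.90, Cldn5 at 0.86, Flt1 at 0.85 and Vwf at -0.11. These correlations describe arrays that share 6 groups, so a common difference between groups raises them.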

How the data were processed

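Cerebellum RNA from 18 pools of 3 mice was measured on Affymetrix 3' arrays. The deposited values are log2 signals; RMA is named without a version in the submitters' processing notes, and which arrays were normalised together is not given in the sources used here. There were 22690 probe sets, 64 of them controls, with values from 3.13 to 14.6. The platform annotation gave 20380 probe sets 1 symbol, 691 several and 1555 none; only the first were used.

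The probe set of highest mean stood for a gene, and 8320 of 12393 genes reached the 40th percentile on at least 3 arrays. All arrays were fitted together with limma 3.58.1 (R 4.3.3; lmFit, eBayes) as 6 group means with 12 residual degrees of freedom. The procedure was tested on simulated data. Precision is limited by the number of arrays. The members, gene lists and tests were chosen with earlier results of these data known. The named genes are the 10 members, the called genes of each list under paraquat in wild-type or knock-out (up to 3 each way), and the 5 genes most alike. Deviations of equally numbered saline and paraquat pools correlated at 0.16, 0.13 and 0.42 in transgenic, 0.09, 0.15 and 0.34 in wild-type and -0.09, -0.28 and -0.12 in knock-out. Transgenic and wild-type values were alike, and the labels number the pools without naming pairs. The main fit treated all pools as unpaired. Replicate blocks were tried as alternatives, over all arrays and on transgenic arrays alone. Another scaling, filters, probe-set rules, array weights, blocks and leaving out each array were tried.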

Additional observations from a re-analysis of the deposited data

How the results depend on the processing

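With all probe sets adjusted together, 2 genes were called in wild-type under paraquat (4 as reported). Of all genes, 134 were called in that comparison in place of 166. With knock-out arrays fitted alone, 1 was called there (5 as reported), beside 44 of all genes in place of 188 (0.529%). Wild-type arrays fitted alone called 6, with Kdr (adjusted p = 0.034) and Eng (0.011) added, beside 849 of all genes in place of 166 (10.2%). Weighting arrays by their noise called 2 in transgenic (0 as reported) and 16 over the genotype comparisons (7). It also called 3 differences of the paraquat effect (0). It raised calls among all genes from 166 to 1059 in wild-type, from 188 to 2173 in knock-out and from 0 to 409 in transgenic. Between transgenic and wild-type under paraquat it raised them from 1578 to 4129, and between transgenic and knock-out from 1284 to 4612. Leaving out 1 array gave 1 to 5 calls in wild-type, 2 to 5 in knock-out, 0 to 0 in transgenic, 4 to 7 in the average, 4 to 12 over the genotype comparisons and 0 to 0 among the differences. The count of 12 came without replicate 2 of knock-out paraquat. In that setting more of all genes were called too, as given above for the transgenic saline arrays. The count of 4 came without replicate 3 of transgenic paraquat. That of 2 in knock-out came without replicate 1 of knock-out saline, where 66 of all genes were called in place of 188. The replicate block over all arrays gave 4, 5, 0 and 6 calls under paraquat in wild-type, knock-out, transgenic and the average, and 6 over the genotype comparisons, where Kdr was lost (adjusted p = 0.052); the block on transgenic arrays alone gave 0. Values near 0 changed sign. Vwf in knock-out was 0.11 with array weights and 0.10 without replicate 2 of knock-out paraquat, with a range of -0.20 to 0.10 over single arrays left out, and in transgenic -0.08 without replicate 1 of paraquat, in a range of -0.08 to 0.37. Flt1 in transgenic was -0.06 with the mean of probe sets, and -0.06 to 0.13 when single arrays were left out (-0.06, -0.06 and -0.05 below 0). Cldn5 in transgenic was -0.07 with array weights, and -0.08 to 0.20 without single arrays (-0.07 and -0.08 below 0). The causes were not tested.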
